A study of Rattus norvegicus with 18 samples.

Results

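The genes described here are 10 genes of blood vessel endothelium and its growth signals, chosen by name: Vegfa, Angpt1, Angpt2, Kdr, Flt1, Tek, Aplnr, Pecam1, Cdh5 and Plvap. Of these, 9 were found in the gene tables of both tissues, among 32285 genes in retina and 32552 in RPE/choroid, and Pecam1 was not analysed here. The study measured bulk RNA from the neural retina and from the RPE/choroid, the retinal pigment epithelium (RPE) with the vascular layer behind it. All rats were wild-type female Fischer 344 rats, an inbred strain, and each tissue had 3 groups of 3 libraries. Young rats were 4 months old by the sample labels and had no treatment, aged rats were 24 months old and had no treatment, and 8-AG treated rats were 24 months old and had drunk 8-aminoguanine (8-AG), a guanine derivative, at 5 mg/kg/day in their water for 8 weeks. By its label the RNA was polyA in 15 libraries, while the 3 retina libraries from treated rats are labelled total RNA, so that within retina this label and the treatment cannot be told apart. In RPE/choroid, young libraries 1 and 2 share a label number with the letters L and R, as do aged libraries 1 and 2, and whether a pair came from the same animal is not stated. P-values therefore measure only the spread between these libraries.

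Endothelial cells grow and survive on vascular endothelial growth factor A (Vegfa), which is made by neighbouring cells and is read by the receptor kinase Kdr, while Flt1 binds the same ligand and acts largely as a trap for it. In a parallel system, the receptor Tek (Tie2) is kept active by Angpt1 and is usually antagonised by Angpt2, and this balance sets how leaky and how stable a vessel is. Retinal vessels are sealed by tight junctions and form the inner blood-retinal barrier, whereas the choriocapillaris next to the RPE is fenestrated, its pores spanned by diaphragms that are built from Plvap and its wall kept up by Vegfa from the RPE. Cdh5 (VE-cadherin) holds endothelial cells to each other, and Aplnr is the receptor for the vessel-patterning peptide apelin.

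The start-site regions of 4 members are shown, since they hold the ligand, both of its receptors and the fenestral gene that the results turn on. Each is the 250 bases before the RefSeq start of the gene in the GRCr8 build, 5′ to 3′ in the direction of transcription, and capitals mark GGAA or its complement TTCC, the core bound by ETS factors, a family that includes the endothelial regulators Erg and Fli1. They lie at chr9:22452604-22452853 (+ strand) for Vegfa, chr14:32571813-32572062 (+) for Kdr, chr12:12333180-12333429 (+) for Flt1 and chr16:18231280-18231529 (- strand) for Plvap.
Vegfa: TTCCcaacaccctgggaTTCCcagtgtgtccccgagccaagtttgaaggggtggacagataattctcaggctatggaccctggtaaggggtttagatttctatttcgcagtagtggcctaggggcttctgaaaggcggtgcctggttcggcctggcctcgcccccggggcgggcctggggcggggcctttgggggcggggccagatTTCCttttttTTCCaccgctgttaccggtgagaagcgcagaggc
Kdr: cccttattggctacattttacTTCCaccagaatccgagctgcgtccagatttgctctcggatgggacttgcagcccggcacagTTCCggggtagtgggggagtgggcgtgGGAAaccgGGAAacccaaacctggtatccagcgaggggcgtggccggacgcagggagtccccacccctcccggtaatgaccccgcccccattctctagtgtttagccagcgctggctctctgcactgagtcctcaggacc
Flt1: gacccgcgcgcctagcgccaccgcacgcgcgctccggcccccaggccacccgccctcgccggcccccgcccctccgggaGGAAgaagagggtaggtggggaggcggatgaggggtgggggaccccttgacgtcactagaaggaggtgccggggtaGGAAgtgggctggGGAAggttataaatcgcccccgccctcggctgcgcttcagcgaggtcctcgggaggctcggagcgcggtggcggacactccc
Plvap: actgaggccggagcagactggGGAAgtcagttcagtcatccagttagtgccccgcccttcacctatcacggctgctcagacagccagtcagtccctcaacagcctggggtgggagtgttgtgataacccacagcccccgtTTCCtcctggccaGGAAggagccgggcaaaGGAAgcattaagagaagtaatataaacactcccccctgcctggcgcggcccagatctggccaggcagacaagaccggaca
The other 5 measured members had no entry in the promoter table used. Counted on both strands, the core occurred 4 times before Vegfa, Kdr and Plvap and 3 times before Flt1. Of 33469 rat promoters of this length, 93.2% held at least 1, with a median of 3. The GC box GGGCGG occurred 3 times before Vegfa and Flt1 and 1 time before Kdr and Plvap, against 30.5% of all promoters with any. The hypoxia response core ACGTG occurred in none of these 4 windows, against 16.6% of all promoters. These are letter matches only.

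Levels are given as CPM, a gene's read count relative to the library total, scaled within a tissue by trimmed mean of M values (TMM). Gene lengths were not used, so levels do not give the relative abundance of genes. Shares of a summed list are read only between groups. Libraries held 12283458 to 15644346 counts in retina and 28573828 to 48203050 in RPE/choroid. A gene was called when its fold change was over 1.5 with an unadjusted P under 0.05 in edgeR's quasi-likelihood test, which is the rule of the study, and the adjusted p is a Benjamini-Hochberg value over all genes tested. The biological coefficient of variation was 0.121 and 0.134 in the retina comparisons and 0.442, 0.629 and 0.600 in RPE/choroid for aged against young, 8-AG against aged and 8-AG against young. Summed markers fitted the labelled tissues: rod genes held 34526 to 59778 CPM in the retina libraries, and RPE genes held 10015 to 19354 CPM in 8 of the 9 RPE/choroid libraries. The exception was RPE/choroid 8-AG library 1, with 6144 CPM of RPE genes, 56289 of rod genes and 47662 of skeletal muscle genes. Member results on 8-AG in RPE/choroid are therefore given with and without it. Other RPE/choroid libraries also held rod RNA, unevenly. Rod genes held 17974, 19981 and 2017 CPM in young libraries 1 to 3 and 11653, 621 and 16916 CPM in aged ones. They held 904 and 884 CPM in 8-AG libraries 2 and 3. Skeletal muscle genes held 4513 CPM in young library 2, 3354 in aged library 1 and 2179 in 8-AG library 2. In retina, lens genes held 2936, 6608 and 164 CPM in young retina against 17.8 to 24.6 CPM in aged retina, and results on aging were run again without young libraries 1 and 2.

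In aged retina the gene of the fenestral diaphragm, Plvap, rose 3.12-fold and Vegfa fell to 0.802 of its young level, while Kdr, Tek and both angiopoietins did not pass the test. The question of this comparison is what age does to the vessels of the neural retina. By the study's rule 2 of 9 members were called, Plvap and Aplnr, both higher, where 8.84% of all 14588 genes were called and 6.45% were called higher. At an adjusted p under 0.05 there were 2 as well, Plvap higher and Vegfa lower, against 14.5% of all genes. In 5 members the CPM of the groups did not overlap, against 35.3% of all genes. In bulk tissue, fewer cells of a type and less RNA per cell cannot be told apart.

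**Figure D1:**
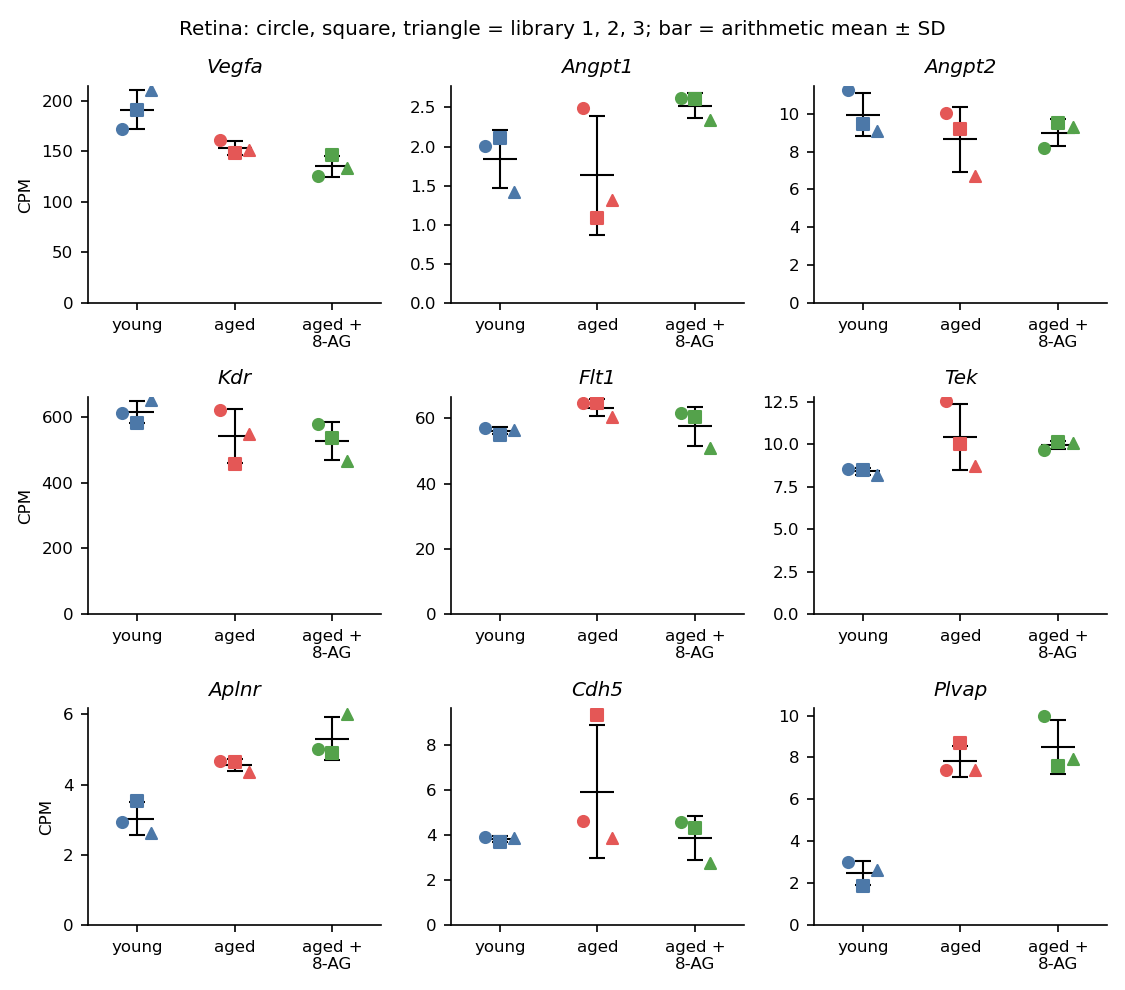
CPM of the 9 members in each retina library, by group, with the mean and SD as black bars. Plvap stood at 1.88 to 3.00 CPM in young and 7.39 to 8.67 CPM in aged retina, and Vegfa at 172 to 210.2 and 148 to 161 CPM.

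Vegfa held 172, 191 and 210.2 CPM in young retina and 161, 148 and 151 CPM in aged retina. Every aged library was below every young library. The log2 fold change was -0.32 with a standard error (SE) of 0.07 (edgeR, adjusted p = 0.019), a ratio of 0.802. The Vegfa direction held with any 1 library left out, at -0.39 to -0.25, but the adjusted p was 0.066 without young library 2 or aged library 3 and 0.061 without young library 3. Angpt2, the vessel-destabilising angiopoietin, held 11.2, 9.48 and 9.12 CPM in young and 10.1, 9.18 and 6.70 CPM in aged retina. The groups overlapped, and its log2 fold change was -0.20 (SE 0.17, edgeR adjusted p = 0.46). Angpt1, the agonist, was sparse, at 2.002, 2.11 and 1.42 CPM in young and 2.49, 1.08 and 1.31 CPM in aged retina, and its log2 fold change was -0.19 with a 95% interval of -0.98 to 0.61.

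Among the receptors, Kdr held 611, 582 and 651 CPM in young and 621, 456 and 548 CPM in aged retina. Aged library 1 was above 2 of the young libraries, and the log2 fold change was -0.18 (SE 0.11, edgeR adjusted p = 0.3). Flt1, the decoy, held 57.1, 55.0 and 56.3 CPM in young and 64.7, 64.7 and 60.4 CPM in aged retina. These groups did not overlap, yet the change was small, with a log2 fold change of 0.17 (SE 0.06, edgeR adjusted p = 0.091). Tek held 8.55, 8.50 and 8.17 CPM in young and 12.6, 10.005 and 8.70 CPM in aged retina. The lowest aged library was just above the highest young one, and the log2 fold change was 0.31 (SE 0.15, edgeR adjusted p = 0.21).

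Aplnr held 2.93, 3.54 and 2.63 CPM in young retina and 4.68, 4.65 and 4.35 CPM in aged retina, with no overlap. Its log2 fold change was 0.59 (SE 0.19, edgeR adjusted p = 0.071), a fold of 1.504 that lay at the edge of the rule. The call was lost with DESeq2, where the unadjusted P was over 0.05, and it was lost for a fold under 1.5 on the deposited TMM values and without young library 1, young library 3, aged library 1 or aged library 2, where the log2 fold change was 0.47 to 0.57.

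Plvap held 3.00, 1.88 and 2.63 CPM in young retina, from 39, 25 and 39 reads, and 7.41, 8.67 and 7.39 CPM in aged retina, from 95, 136 and 107 reads. All aged libraries were well above the highest young library. The log2 fold change was 1.64 with a 95% interval of 1.19 to 2.09 (edgeR, adjusted p = 8e-04), or 3.12-fold. The call held in all 16 alternative settings, at log2 fold changes of 1.34 to 1.79 and adjusted p of 3.8e-07 to 0.019. Cdh5, the junctional cadherin, held 3.93, 3.69 and 3.85 CPM in young and 4.60, 9.30 and 3.87 CPM in aged retina. Only aged library 2 was high, and the Cdh5 log2 fold change of 0.64 (SE 0.32, edgeR adjusted p = 0.22) was 0.15 without that library. It was 0.87 and called without aged library 3.

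Plvap was also compared with the sum of the 21 other endothelial genes in the same library, a list that shares no gene with the members. This sum was 105, 99.6 and 104 CPM in young, 142, 215 and 121 CPM in aged and 149, 140.0 and 109 CPM in 8-AG treated retina. As a percentage of it, Plvap held 2.85, 1.89 and 2.54 in young and 5.22, 4.04 and 6.10 in aged retina. The shares did not overlap and their means differed 2.11-fold (exact two-sided permutation test, P = 0.1, the smallest value that 3 against 3 allows). Aplnr and Cdh5, by the same measure, had mean ratios of aged to young of 1.02 and 0.968 with overlapping groups. Vegfa, made largely by other cells, was at a mean of 186% of this sum in young and 102% in aged retina without overlap. The shares of Kdr, Flt1 and Angpt2 were likewise lower without overlap, at ratios of 0.616, 0.768 and 0.584. The sum itself was higher in every aged library, most in aged library 2 at 215 CPM, and a higher sum lowers every share. In CPM, Flt1 was higher in aged retina (log2 fold change 0.17), and the groups of Kdr and Angpt2 overlapped. These lower shares are therefore not read as a fall of the genes. Kdr alone was at a mean of 597% of the sum in young and 368% in aged retina, without correction for gene length. Which cells of the retina its RNA came from was not tested. With 3 against 3 no member could pass in this test, and 9 were compared.

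The other endothelial genes were mostly higher in aged retina. Of 19 tested, 18 had a higher fitted value, 10 were called higher, none was called lower and 1 passed at an adjusted p under 0.05, with a median log2 fold change of 0.88 against 0.0019 for all genes. That gene was Sox18, an endothelial transcription factor, with a log2 fold change of 1.45 (SE 0.37, edgeR adjusted p = 0.027, up to 0.16 over the alternative settings). Called genes included the von Willebrand factor gene Vwf, at 1.23 (SE 0.38), the ETS factors Erg at 0.92 (SE 0.29) and Fli1 at 0.88 (SE 0.31), and Cd34 at 1.57 (SE 0.44), named after their values were seen. The count of calls rested in part on 1 library: it was 6, with 16 of 19 higher and a median of 0.63, without aged library 2, which also held 186 CPM of erythrocyte genes against 38.9 and 42.9 CPM in the other aged libraries. It was 3 with young libraries 1 and 2 left out together, and 9 with DESeq2. The part of blood in these values was not tested.

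**Figure D2:**
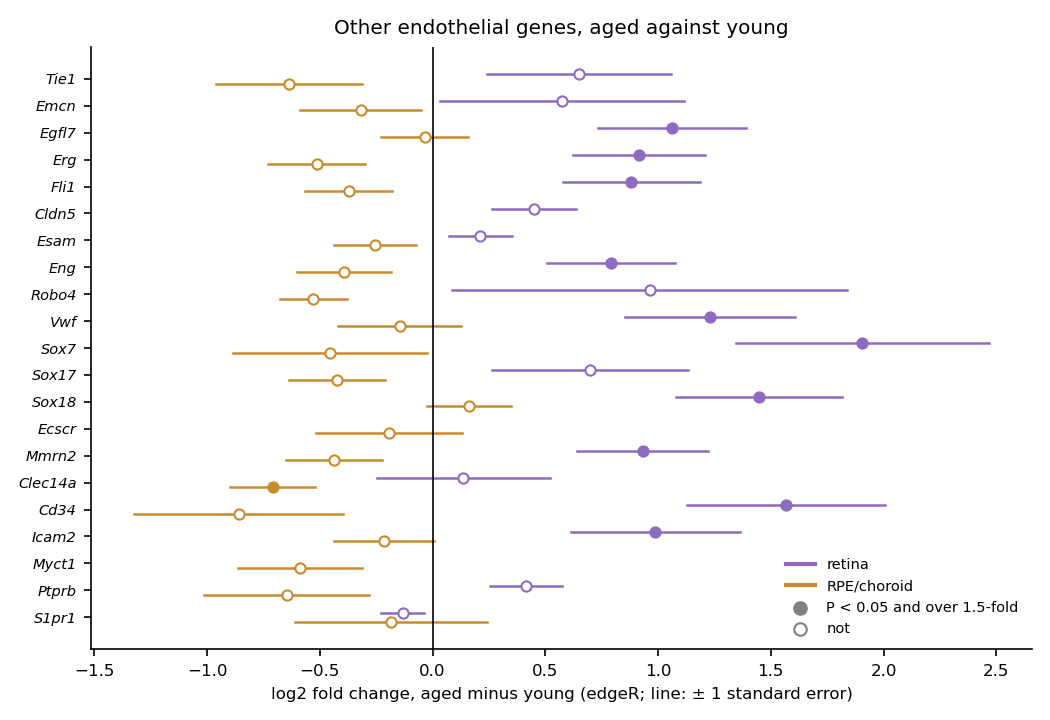
log2 fold change, aged minus young, of the other endothelial genes that could be tested in retina (purple) and in RPE/choroid (orange), with 1 standard error as the line and called genes filled. In retina 18 of 19 genes lie to the right of 0, and in RPE/choroid 19 of 20 lie to the left.

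Of the vessel pathways in aged retina, the VEGF family comes first. In the VEGF family and its receptors, 5 of 9 tested genes were higher and 4 lower, with a median of 0.0040, and the co-receptor Nrp1 rose, with 30.5 ± 3.41 CPM in young and 40.5 ± 3.48 CPM in aged libraries (SD, n = 3, log2 fold change 0.41, edgeR adjusted p = 0.024, up to 0.078 over the alternative settings). In the angiopoietin and Tie pathway 3 of 5 tested genes were higher, with a median of 0.31 and none called. Each of these lists counts 3 members again. The 2 apelin genes tested were both higher, Aplnr and its ligand Apln, the latter at 0.06 (SE 0.46). Among 8 Notch and tip cell genes only the Notch ligand Jag1 passed at the adjusted p, and it fell by 1.02 on the log2 scale (SE 0.09, adjusted p = 0.00018), from 105 to 51.8 CPM, with an adjusted p of at most 0.0093 in every setting. Of the 5 genes that the study named in RPE/choroid (Angpt2, Aplnr, Tek, Col15a1 and Enpep), 4 were higher in aged retina and 2 were called higher, Aplnr and the basement membrane collagen Col15a1. The retina counts used for Col15a1 did not match the TMM-normalized values deposited under that symbol. It was also sparse, and had a value in only 13 of the 16 alternative settings. Col15a1 held 0.383 ± 0.136 CPM in the young group and 1.57 ± 0.136 CPM in the aged group (SD, n = 3), with a log2 fold change of 1.99 (SE 0.36, edgeR adjusted p = 0.0057, but 0.15 with young libraries 1 and 2 left out together).

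Of 11 genes of barrier endothelium tested, 9 were higher and 2 passed at the adjusted p, where 14.5% of all genes did. Those 2 are transporters of the blood-retinal barrier. The drug efflux pump Abcb1a had a log2 fold change of 0.71 (edgeR adjusted p = 0.0084). The organic anion carrier Slco1a4 had 0.56 (edgeR adjusted p = 0.013). The adjusted p of Abcb1a stayed under 0.05 in every setting, and that of Slco1a4 rose to 0.052. The tight junction gene Cldn5 had 0.45 (SE 0.19, adjusted p = 0.15), with overlapping groups. Among the 4 tested genes of the list of choriocapillaris genes, 2 passed, Plvap itself and Vwa1, at 0.84 (adjusted p = 0.046). The Vwa1 result rested on single libraries: its adjusted p stayed under 0.05 only without aged library 3 when 1 was left out, and without aged library 2 it was at 0.52 and no longer called. Of 12 mural cell genes, which mark pericytes and smooth muscle, 8 were higher and none was called, and Rgs5 fell, with a log2 fold change of -0.48 (adjusted p = 0.037, up to 0.21 over the alternative settings). Angiogenesis inhibitors had 6 of 8 higher, a median of 0.12 and no gene called.

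Vegfa is induced by hypoxia. Of 12 other hypoxia genes tested, regulators as well as induced genes, 10 were lower in aged retina, at a median of -0.15. No gene of this list was called by the rule, and a part of hypoxia in the Vegfa value was not tested. The 3 that passed at the adjusted p were Ndrg1 (log2 fold change -0.51, edgeR adjusted p = 0.0011), Hif1a (-0.27, adjusted p = 0.01) and Ddit4 (-0.53, adjusted p = 0.021). With young libraries 1 and 2 left out together the adjusted p was 0.064 for Ndrg1 and 0.14 for Hif1a, which otherwise kept theirs with any 1 library left out, and that of Ddit4 reached 0.14. Other cell types also moved between these groups. Rod genes were lower in 13 of 13, 10 of them at the adjusted p, with sums of 54915 to 59778 CPM in young and 34526 to 39190.0 CPM in aged retina. Mueller glia, a main source of Vegfa in retina, had 5 of 8 marker genes lower and 3 higher, and 3 lower and 1 higher passed at the adjusted p, with Glul at -0.42 (adjusted p = 0.009, but 0.14 with young libraries 1 and 2 left out together). Microglia and macrophage genes were higher in 9 of 9, all at the adjusted p, with sums of 39.8 to 41.9 CPM in young and 124 to 218 CPM in aged retina. RPE genes were higher in 8 of 12, at a median of 0.71, and none was called. Of these, 1 passed as lower at the adjusted p, and the sums overlapped. Fibroblast genes summed to at most 137 CPM in young and 153 to 234 CPM in aged retina. Only 3 of them were tested, 1 higher and 2 lower. Melanocyte and Schwann cell genes were higher in 5 of 7, with overlapping sums. The part of these cell types in the member values was not tested. Nor was the part of choroid RNA in the retina value of Plvap, which is abundant in RPE/choroid.

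No member was called in 8-AG treated against aged retina, and the 9 log2 fold changes ran from -0.63 to 0.64. The question here is whether the treatment moves the vessel genes of the old retina. Calls by the rule made up 0.957% of all 14631 genes and calls at an adjusted p under 0.05 made up 0.0205%. No member had an unadjusted P under 0.05 apart from Vegfa, all adjusted p were 1, and DESeq2 also called 0 members, and 18 genes in all, at an adjusted p under 0.05. These values share the aged libraries with those for aging.

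Vegfa held 125, 146 and 134 CPM in 8-AG treated retina, each below the lowest aged library at 148 CPM. Its log2 fold change against aged was -0.19 with a 95% interval of -0.36 to -0.01 (edgeR, adjusted p = 1). Aplnr held 5.02, 4.89 and 6.01 CPM, each above the highest aged library at 4.68 CPM, with a log2 fold change of 0.22 (SE 0.17). Vegfa and Aplnr were the 2 members whose groups did not overlap, against 8.78% of all genes.

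Plvap overlapped its aged range under 8-AG, at 9.96, 7.58 and 7.95 CPM, and its difference from aged was 0.11 with a 95% interval of -0.24 to 0.47. Kdr held 579, 537 and 466 CPM, Flt1 61.7, 60.4 and 50.8 CPM and Tek 9.65, 10.1 and 10.1 CPM, all overlapping aged retina. Their intervals against aged were -0.32 to 0.23 for Kdr, -0.34 to 0.06 for Flt1 and -0.42 to 0.28 for Tek. Angpt2 held 8.18, 9.53 and 9.28 CPM, with an interval of -0.33 to 0.45.

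Angpt1 held 2.62, 2.61 and 2.34 CPM under 8-AG, and aged library 1 was among them at 2.49 CPM. Its log2 fold change was 0.64 (SE 0.33), and without aged library 1 it was 1.07 and called. Cdh5 held 4.55, 4.32 and 2.74 CPM, and its log2 fold change of -0.63 (SE 0.36) was -0.86 and called without aged library 3. Other endothelial genes were lower in 17 of 19, none called, with a median of -0.30 against -0.0031 for all genes. This lean rested on aged library 2, the highest in their summed level at 215 CPM: without it 9 of 19 were lower and the median was 0.038. Surface epithelium genes, which mark cornea, conjunctiva or skin, held 15.1 to 32.7 CPM in the 8-AG libraries and 3.45 to 6.56 CPM in the aged ones. Of 5 tested, 5 were called higher, where 0.957% of all genes were called. Their median log2 fold change was 2.29, with Krt5 at 2.69 and Perp at 1.61. Lens genes held 1819.6, 20.2 and 23.8 CPM in the 8-AG libraries against 17.8 to 24.6 CPM in the aged ones. RPE genes had higher fitted values in 11 of 11 tested, with a median of 0.69 and none called, and summed to 639, 454 and 489.8 CPM in 8-AG treated and 513, 309.6 and 479 CPM in aged retina. The part of these cells in the member values was not tested.

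In aged RPE/choroid all 9 members had lower fitted values than in young RPE/choroid, by 1.26-fold to 1.77-fold, where 47% of all 16047 genes were lower. This comparison asks what age does to the tissue that holds the choriocapillaris. The rule called 4 members, all lower: the ligand Angpt2, the receptor Aplnr, the junctional gene Cdh5 and the fenestral gene Plvap. With the libraries that share a label number summed, 1 was called, Angpt2, and with a replicate block 2 were, Angpt2 and Aplnr. Calls made up 1.35% of all genes, and calls of lower genes 0.636%. No member passed at an adjusted p under 0.05, nor did any gene in edgeR (0% of 16047 genes), while 341 genes had an unadjusted P under 0.05. DESeq2 called 34 genes at an adjusted p under 0.05 and 0 members. The study itself named Angpt2, Aplnr and Tek, with Col15a1 and Enpep, as lower on these same samples, so their direction is not independent evidence. Of those 5 genes 4 were called lower here, all but Tek.

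**Figure D3:**
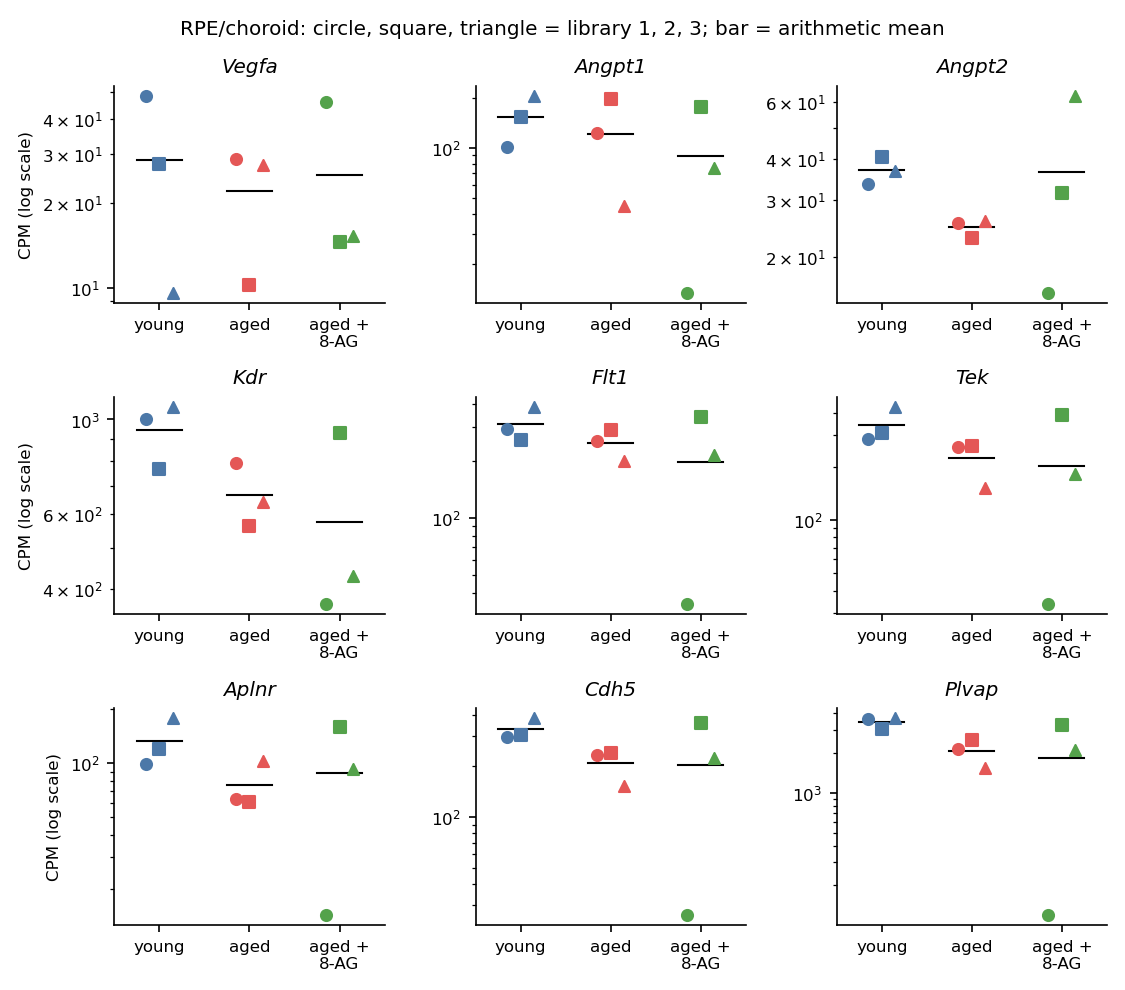
CPM of the 9 members in each RPE/choroid library on a log axis, by group, with the arithmetic mean as a black bar. Aged libraries lie below all young libraries for Angpt2, Tek, Cdh5 and Plvap, and 8-AG library 1 (green circle) is the lowest of the 9 libraries for 8 members, at 119 CPM for Plvap.

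Of the ligands, Angpt2 held 33.5, 40.7 and 36.7 CPM in young and 25.4, 22.8 and 25.7 CPM in aged RPE/choroid. The aged libraries were close to each other and all below the young ones, and the log2 fold change was -0.59 with a 95% interval of -0.91 to -0.27 (edgeR, adjusted p = 1). Vegfa held 48.3, 27.7 and 9.57 CPM in young and 28.7, 10.2 and 27.5 CPM in aged RPE/choroid. Its libraries differed widely within each group, and the interval of the log2 fold change ran from -1.96 to 1.22. Angpt1 was as variable, at 101, 153 and 205 CPM in young and 122, 197 and 44.4 CPM in aged RPE/choroid, with an interval of -1.70 to 1.03. Vegfa was lowest in young library 3 and aged library 2, which also held the least rod RNA of their groups, at 2017 and 621 CPM. The part of retinal RNA in the Vegfa values was not tested, beyond a fit with rod genes as a covariate.

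Kdr held 1000.2, 767 and 1070.5 CPM in young and 789.5, 562 and 639 CPM in aged RPE/choroid. Only aged library 1 reached above the lowest young library, and the log2 fold change was -0.52 (SE 0.21), with the unadjusted P just over 0.05. Flt1 held 293, 257 and 385 CPM in young and 253, 292 and 199 CPM in aged RPE/choroid, overlapping, with a log2 fold change of -0.33 (SE 0.23). Tek held 288, 309 and 435 CPM in young and 259, 260.1 and 151 CPM in aged RPE/choroid. No aged library reached the young ones, but aged library 3 stood low, and the log2 fold change was -0.63 (SE 0.29, not called). Aplnr held 99.7, 119.9 and 179 CPM in young and 63.4, 61.1 and 103 CPM in aged RPE/choroid. The highest aged library overlapped the lowest young one, and the log2 fold change was -0.82 (SE 0.30, called), the largest of the 9.

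Cdh5 held 297, 305 and 384 CPM in young and 233, 237 and 153 CPM in aged RPE/choroid, without overlap. Its log2 fold change was -0.67 (SE 0.23, called). Plvap, which is abundant in this fenestrated bed, held 3577, 3008 and 3674 CPM in young and 2151, 2484 and 1549 CPM in aged RPE/choroid. Every aged library was below every young library, and the log2 fold change was -0.73 with a 95% interval of -1.33 to -0.14 (called), 1.66-fold lower. The groups did not overlap in Angpt2, Tek, Cdh5 and Plvap, 4 of 9 members, against 7.1% of all genes.

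Aged RPE/choroid library 3 was the lowest of the 3 aged libraries for Flt1, Tek, Cdh5 and Plvap. It also held the least melanocyte and Schwann cell RNA, 9881 CPM against 21894 and 25502 in the other aged libraries, and the least RPE RNA, 10015 CPM against 15739 and 16939. Both lists hold Mlana and Pmel, so the sums are not separate. Without aged library 3 Cdh5 was at -0.48 and Plvap at -0.56, both then under 1.5-fold and no longer called, while Aplnr was at -1.09 and Angpt2 at -0.61. The Cdh5 call was also lost without young library 3 (-0.55), and the Plvap call without young library 1 (-0.71), young library 3 (-0.69) or aged library 1 (-0.77), each with an unadjusted P over 0.05. The Aplnr call was lost without young library 2 or 3 or aged library 1 or 2, at -0.90 to -0.56, and the Angpt2 call without young library 2 or aged library 2, where its change was under 1.5-fold. Kdr was called without young library 2 (-0.66) or aged library 1 (-0.67). The count of called members was 4 with all libraries and 1 to 3 when any 1 was left out, and it was 0 when all 3 groups shared a fit and with it the spread of the 8-AG libraries.

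Relative to the sum of the other endothelial genes in the same library, which was 4016, 4101 and 5904 CPM in young and 3628, 4148 and 2985 CPM in aged RPE/choroid, Plvap held 89.1%, 73.3% and 62.2% in young and 59.3%, 59.9% and 51.9% in aged RPE/choroid. These shares did not overlap, with a ratio of aged to young of 0.762 (exact two-sided permutation test, P = 0.1). The ratios of Cdh5 and Tek were 0.809 and 0.837, also without overlap, and those of Aplnr and Angpt2 were 0.790 and 0.863 with overlap. Flt1 was at 1.03.

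The list of other endothelial genes leaned the same way in aged RPE/choroid, with 19 of 20 tested lower, 1 called, and a median of -0.41 against 0.018 for all genes. The called gene was Clec14a, an endothelial lectin, with a log2 fold change of -0.71 (SE 0.19, edgeR adjusted p = 1). The Tie-family receptor Tie1 had -0.64 (SE 0.32), Robo4 -0.53 (SE 0.15) and Sox18, the only higher one, 0.16 (SE 0.19). Cldn5 was listed at 0 in all young and aged RPE/choroid libraries. The RPE/choroid data did not name this gene, and its ID was matched through its retina values. Whether the 0 means absent RNA was not tested.

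By pathway, the angiopoietin and Tie genes were lower in 6 of 6 with a median of -0.61 and 1 called, Angpt2. The VEGF family and its receptors were lower in 8 of 10 with a median of -0.37 and none called. Both apelin genes were lower, with Aplnr called. Notch and tip cell genes were lower in 9 of 10 at a median of -0.15, choriocapillaris genes in 6 of 6 at a median of -0.51, and mural cell genes in 9 of 14 at a median of -0.18, with Plvap the only call among these 3 lists. Members are counted again here: 3 in the angiopoietin and Tie list, 3 in the VEGF list, 1 apelin gene and 2 choriocapillaris genes. Tie1 and Ptprb are also among the other endothelial genes. These counts are therefore not separate from those above. Col15a1, a basement membrane collagen, had -1.55 and Enpep, an aminopeptidase of the vessel wall, -0.62, both called. The Col15a1 call held in 14 of 15 alternative settings. The Enpep call held in only 6 of 15, at -0.81 to -0.35. Of 11 barrier endothelium genes 7 were lower, with Slco1a4 called lower at -0.61 and the amino acid transporter Slc38a5 called higher at 1.96. The Slco1a4 call held in 12 of 15 alternative settings and the Slc38a5 call in 7 of 14. Hypoxia genes had a median of -0.04 and angiogenesis inhibitors of 0.17, with none called in either. Erythrocyte genes moved with the groups, at 301, 71.6 and 1023 CPM in young and 52.8 to 71.5 CPM in aged RPE/choroid, and so did lens genes, 4 of 9 called lower, with Cryba1 at -4.56. The Cryba1 call held in 8 of 15 alternative settings, and its value ran from -5.1 to -1.35. Rod genes were lower in 12 of 13 with none called, and their sums ran from 621 to 19981 CPM. The part of these in the member values was not tested, beyond fits with the rod or the melanocyte genes as a covariate, in which Plvap was at -0.81 and -0.99 and Cdh5 at -0.73 and -0.95, all called.

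Plvap was the member whose aging change differed between the tissues. It was higher in aged retina and lower in aged RPE/choroid, and the difference, RPE/choroid minus retina, was -2.38 on the log2 scale (SE 0.32, edgeR interaction, adjusted p = 0.036). At that adjusted p 0.161% of 16792 genes were called. Leaving out 1 library moved the Plvap difference only between -2.55 and -2.20, and the adjusted p between 0.04 and 0.12. It stayed under 0.05 without retina aged library 3 and without RPE/choroid aged library 2, and exceeded 0.05 when any other single library was left out. The differences of Aplnr (-1.42, adjusted p = 0.15), Cdh5 (-1.31, adjusted p = 0.34) and Tek (-0.94, adjusted p = 0.42) did not pass. Those of Vegfa (-0.06, SE 0.71), Angpt1 (-0.16, SE 0.77), Angpt2 (-0.40, SE 0.23), Kdr (-0.34, SE 0.25) and Flt1 (-0.52, SE 0.24) did not either. The tissues were prepared and counted separately, so levels are not compared between them.

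**Figure D4:**
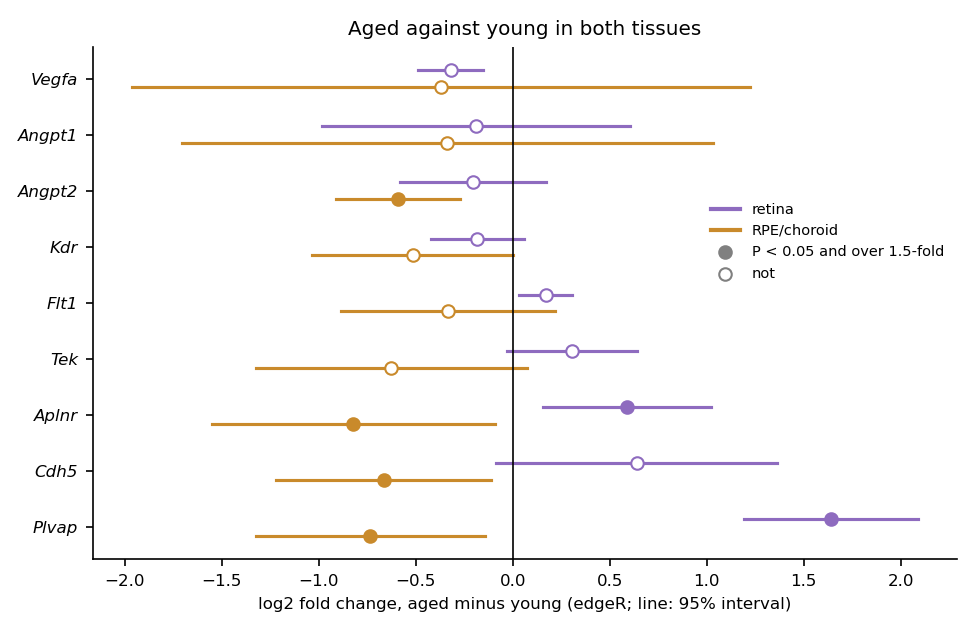
log2 fold change, aged minus young, of the 9 members in retina (purple) and RPE/choroid (orange), with the 95% interval as the line and called members filled. Plvap lies at 1.64 in retina and -0.73 in RPE/choroid, and all 9 members lie left of 0 in RPE/choroid.

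In 8-AG treated RPE/choroid no member was called against aged or against young RPE/choroid, and all groups overlapped. The question is whether treatment brings the vessel genes of the aged tissue back toward young levels. Against aged, 1.65% of 16257 genes were called by the rule and 3.96% had groups that did not overlap. Against young, the figures were 1.99% of 16215 genes and 5.96%. At an adjusted p under 0.05 edgeR called 0% in both, with 274 and 341 genes at an unadjusted P under 0.05 of which none was a member, and DESeq2 called 41 and 70 genes with 0 members. The 2 comparisons share the 8-AG libraries, and each shares its other group with the comparison of aged and young.

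8-AG library 1 stood apart. Plvap held 119, 3260.4 and 2089 CPM in the 8-AG libraries, Cdh5 26.3, 356 and 223 CPM, and Flt1 34.9, 339 and 213 CPM. Tek held 33.5, 393 and 181 CPM, Aplnr 14.2, 159 and 92.7 CPM and Angpt1 13.3, 177 and 75.3 CPM. In each of these 6, library 1 was the lowest of all 9 RPE/choroid libraries, from 3.34-fold (Angpt1) to 13.0-fold (Plvap) below the next lowest, and the other 2 spanned much of the young and aged range. Kdr, at 369, 928 and 429 CPM, and Angpt2, at 15.4, 31.4 and 62.8 CPM, were also lowest in library 1, but by 1.16-fold and 1.48-fold. Vegfa, at 46.1, 14.5 and 15.3 CPM, was the exception and was within the range of the other libraries.

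The same library was low in the other cell types of the choroid and high in those of other tissues. It held 319 CPM of other endothelial genes against 2985 to 5904 in the other 8 libraries, 212 CPM of mural cell genes against 1172 to 3241, 1120.4 CPM of fibroblast genes against 4297 to 11041 and 1119.6 CPM of melanocyte and Schwann cell genes against 9881 to 25502. It held 56289 CPM of rod genes against 621 to 19981, 47662 CPM of skeletal muscle genes against 16.5 to 4513 and 1986 CPM of surface epithelium genes against 6.23 to 294. The part of this make-up in the member values was not tested.

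**Figure D5:**
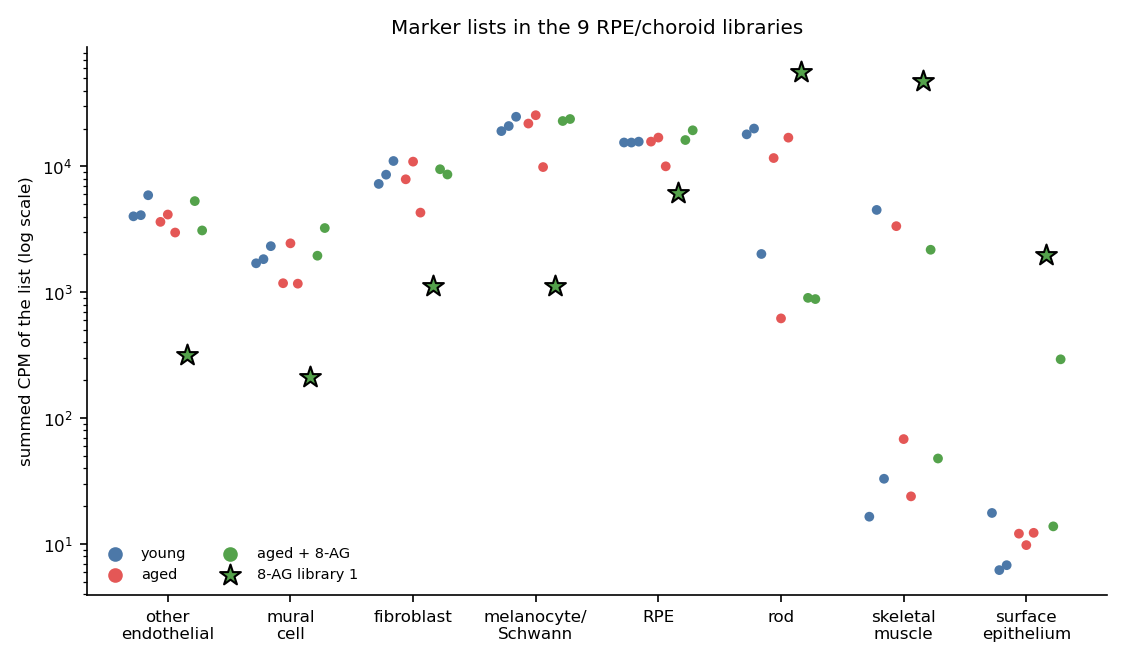
Summed CPM of 8 marker lists in the 9 RPE/choroid libraries on a log axis, by group, with 8-AG library 1 as a star. The star lies below the other libraries for the endothelial, mural, fibroblast, melanocyte and RPE lists, at 319 CPM for the other endothelial genes, and above them for the rod, muscle and surface epithelium lists.

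With all libraries, the log2 fold changes of 8-AG against aged RPE/choroid ran from -0.45 for Angpt1 to 0.58 for Angpt2, with SEs of 0.43 to 1.04. For Plvap it was -0.17 with a 95% interval of -2.75 to 2.41, so that neither a large rise nor a large fall could be detected at this spread. Without library 1, the differences from aged were 0.38 for Plvap, 0.48 for Cdh5, 0.36 for Tek, 0.16 for Flt1, 0.73 for Aplnr, 0.03 for Kdr, 0.06 for Angpt1 and -0.57 for Vegfa, none called. Angpt2 was at 0.93 and called (edgeR adjusted p = 0.92). Against young RPE/choroid, all 9 members were lower with all libraries, from -0.91 for Plvap to -0.01 for Angpt2. Without library 1, Plvap was at -0.35, Cdh5 at -0.18, Tek at -0.26, Flt1 at -0.17, Aplnr at -0.08, Kdr at -0.48, Angpt1 at -0.28, Angpt2 at 0.36 and Vegfa at -0.92, with none called. Kdr was called lower than in young when 8-AG library 2 was left out, at -1.22.

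As a share of the other endothelial genes in the same library, Plvap held 37.4%, 61.5% and 67.4% in the 8-AG RPE/choroid libraries, so library 1 was low by this measure too. With all libraries, other endothelial genes were lower in 19 of 20 against aged, at a median of -0.32, and in 20 of 20 against young, at a median of -0.66, none called in either. Their sum was 319, 5304 and 3101 CPM in the 8-AG libraries and 3628, 4148 and 2985 CPM in the aged ones. Only library 1 was below the aged range, and the direction of this list without it is not given here. In the fits with the rod or the melanocyte genes as a covariate, 20 and 15 of the other endothelial genes were called against young, and 7 and 6 members. These members were all lower, and the edgeR adjusted p of each was 0.18 or more. Both fits kept library 1, the highest of the 9 in rod genes and the lowest in melanocyte genes. The share of all genes called in these fits is not given here, so the counts are not read as a result. The 8-AG change of no member differed between the tissues, with 0% of 16915 genes called by edgeR at an adjusted p under 0.05 and 413 at an unadjusted P under 0.05, none of them a member.

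The 6 measured members on the endothelial surface, Kdr, Flt1, Tek, Aplnr, Cdh5 and Plvap, followed each other across RPE/choroid libraries. Over the 9 libraries their 15 pairwise Pearson correlations on log2 CPM ran from 0.752 to 0.993 with a median of 0.913, and without 8-AG library 1 from 0.504 to 0.960 with a median of 0.729 over 8 libraries. In the 9 retina libraries the same pairs ran from -0.698 to 0.848 with a median of 0.245. There Kdr correlated at -0.70 with Aplnr, -0.56 with Plvap, -0.31 with Cdh5, -0.22 with Tek and 0.07 with Flt1. The mean of the 6 in retina therefore joins genes that did not move together. All points of a pair share their libraries and scaling. The genes most like the mean of the 6 in RPE/choroid, out of 13524, were Enpep (0.995), Clec14a (0.994), Srms (0.993), Clec1a (0.992) and Tie1 (0.991). Without 8-AG library 1 these 5 had correlations of 0.970, 0.986, 0.926, 0.968 and 0.963. In retina, out of 12964 genes, they were Plce1 (0.98), Spsb1 (0.97), Junb (0.97), Mafk (0.97) and Bhlhe40 (0.96), none of them on the endothelial list.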

How the data were processed

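For retina the authors deposited RSEM expected counts per gene, 11.5% of them not whole, which were rounded here, and a table of TMM-normalized signal, used as an alternative. For RPE/choroid the authors deposited raw read counts per gene. The submitters' processing notes name Bowtie2 2.1.0, RSEM 1.2.15, edgeR and the Rnor_6.0 build, and the counter used for RPE/choroid is not given in the sources used here. By the study's methods libraries were made by polyA selection, though the labels give total RNA for the 3 treated retina libraries, and in RPE/choroid with full-length enrichment because little RNA was recovered. The authors' own comparison columns (fold changes, p-values and adjusted p-values) were not used.

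Each comparison used only its own 6 libraries and was fitted over all genes in R 4.3.3 with edgeR 4.0.16 (filterByExpr, TMM, glmQLFit with robust=TRUE, glmQLFTest), and tissues were compared by an interaction term over 12 libraries. A call needed a fold change over 1.5 and P under 0.05, as in the study. Scripts were tested on simulated data. Alternatives were RLE size factors, DESeq2 1.42.0, other filters, a fit of all 3 groups, a replicate block, unrounded counts, limma 3.58.1 on the TMM values with pseudocounts of 0.5 and 1, libraries sharing a label number summed, a rod gene covariate, voom with quality weights and each library left out. A melanocyte and Schwann cell gene covariate, leaving out young retina libraries 1 and 2 together, leaving 8-AG library 1 out of the likeness ranking the shares of the other endothelial genes, and this list without aged retina library 2 were added after seeing the data. The members and gene lists were chosen with earlier results of these data known.

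All members were named. From each other list and comparison, up to 4 genes with an adjusted p under 0.05 could be named, or else up to 2 called genes, and genes named outside this rule are given as examples of a list chosen after their values were seen. Promoter sequences came from RefSeq. Deviations of samples with the same replicate number correlated at -0.62 to 0.70 and not above 0.1 throughout any comparison, so numbers were not taken to pair samples. No 2 libraries of the same group agreed within sampling noise, the lowest chi-square per gene being 5.77. Counts limit precision by counting error as well as by 3 libraries a group.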

Additional observations from a re-analysis of the deposited data

Results flagged for a closer look

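The age difference of Plvap, the diaphragm protein of fenestrated capillaries, ran in opposite directions in the 2 tissues, and the difference itself passed the test. RPE/choroid minus retina came to -2.38 on the log2 scale (SE 0.32, edgeR interaction over 12 libraries, adjusted p = 0.036). With 1 library left out the adjusted p ran from 0.04 to 0.12, and it stayed under 0.05 only without retina aged library 3 or RPE/choroid aged library 2. Plvap was higher in 3 of 3 aged retina libraries than in any young one, and lower in 3 of 3 aged RPE/choroid libraries than in any young one, though 2 of each of those RPE/choroid groups share a label number. The retina values rest on 25 to 136 reads a library, and the part of choroid RNA in them was not tested.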

How the results depend on the processing

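Replicate numbers were not shown to pair the samples. With a replicate block the rule called 2 members in aged RPE/choroid instead of 4, with the calls of Cdh5 and Plvap lost, Aplnr in 8-AG against aged RPE/choroid turned to -0.27, and no other count of members changed.

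Members called in aged retina were 2, but 1 with DESeq2 and with the deposited values at pseudocounts of 0.5 or 1, and 1 to 3 with a library left out (1 to 2 at the adjusted p). In aged RPE/choroid the 4 became 0 with all 3 groups in one fit, 1 with libraries of one label number summed and 1 to 3 with a library left out. In 8-AG against young RPE/choroid the 0 became 7 with the rod covariate and 6 with the melanocyte and Schwann cell covariate, all lower and with 8-AG library 1 kept. With a library left out it was 0 to 1 in each 8-AG comparison, and 0 to 1 against 1 for the difference between tissues. Causes were not tested.

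Signs turned as follows (log2). In aged retina, Angpt1 was at 0.19 with young libraries 1 and 2 left out together and at -0.62 to 0.042 with 1 library left out. In aged RPE/choroid, Vegfa was at 0.042 and 0.33 with the rod and melanocyte covariates, and with a library left out Vegfa ran from -0.80 to 0.24 and Angpt1 from -0.88 to 0.063. In 8-AG against aged RPE/choroid, Aplnr was at -0.52 with the rod covariate, summed libraries gave Tek 0.0037 and Cdh5 0.077, and the melanocyte covariate gave Vegfa -0.41, Tek 0.11, Cdh5 0.20 and Plvap 0.011. In 8-AG against young RPE/choroid, Angpt2 was at 0.011 with RLE factors, 0.011 with DESeq2 and 0.081 with the melanocyte covariate, and Vegfa at 0.13 with summed libraries and 0.26 with the rod covariate. The tissue difference of Vegfa was 0.13 with voom.

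With a library left out, 8-AG against aged RPE/choroid ran from -0.57 to 0.51 for Vegfa, -1.45 to 0.10 for Angpt1, -0.076 to 0.93 for Angpt2, -0.71 to 0.031 for Kdr, -0.99 to 0.16 for Flt1, -1.05 to 0.36 for Tek, -0.50 to 0.73 for Aplnr, -0.73 to 0.48 for Cdh5 and -0.90 to 0.38 for Plvap. Against young it ran from -0.65 to 0.36 for Angpt2 and -0.92 to 0.45 for Vegfa. In 8-AG against aged retina it ran from -0.10 to 0.18 for Angpt2, -0.15 to 0.069 for Kdr, -0.014 to 0.20 for Plvap and -0.18 to 0.086 for Tek. The tissue difference ran from -0.70 to 0.26 for Angpt1 and -0.47 to 0.55 for Vegfa.

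In retina, Angpt1, Aplnr, Cdh5 and Plvap rest on few reads (Plvap on 25 to 136 a library), which limits their precision, and in RPE/choroid the spread between 3 libraries is wide.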
